A study of Homo sapiens with 12 samples.

Results

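The actin and SRF target genes described here are ACTB, ACTG1, ACTBL2, ACTA2, TAGLN, TPM1, TPM2, MYL9, VCL and SRF, 10 of the 46350 named genes counted in each library. They were found by their symbols in the count tables, and they were selected on the counts of SKOV3/DDP cells, in which ACTG1 and ACTBL2 were lower with paeonol (PAE). Values of PAE in SKOV3/DDP, of these genes and of other genes of their pathway, are therefore a description with no test. The 12 RNA sequencing libraries fall into 4 groups of 3: untreated SKOV3, SKOV3 with PAE, untreated SKOV3/DDP and SKOV3/DDP with PAE. SKOV3 is an established line of human epithelial ovarian cancer that the labels call sensitive to cisplatin, and SKOV3/DDP is called the resistant line. PAE is a phenol found in peony root. The labels give neither its dose nor the time of treatment, nor whether the untreated cells received a vehicle, and they do not say whether the 3 libraries of a group came from separate cultures, so p-values measure the spread between these libraries, which may be technical.

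Actin monomers polymerize into the filaments that give cells their shape and their grip on a surface. SRF is a transcription factor that binds a short DNA element called the CArG box, together with cofactors of the MRTF family. MRTF proteins bind free actin monomers and enter the nucleus when monomers are used up in filaments, so that filament assembly and the transcription of actin genes are linked. Known targets include cytoplasmic and smooth muscle actins, filament coats such as tropomyosins and transgelin, adhesion proteins such as vinculin, and SRF itself.

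The 10 genes lie on GRCh38 as the count tables give them. ACTB, the main beta cytoplasmic actin, lies at chr7:5527148-5530601 on the minus strand, ACTG1, the gamma cytoplasmic actin, at chr17:81509971-81512799 on the minus strand, and ACTBL2, a less studied actin of the same kind, at chr5:57480018-57482811 on the minus strand. ACTA2, the smooth muscle alpha actin, lies at chr10:88935074-88991397 on the minus strand and SRF at chr6:43171269-43181506 on the plus strand. All 10 are annotated as protein coding. RefSeq promoter sequences (GRCh38.p14, the 250 bases before an annotated start) were matched for 7 of the 10 genes, with 10 windows in all, and ACTB, TAGLN and MYL9 had no entry. Some windows, such as that of TPM1, lie inside the gene as the count tables give it. CArG boxes, which are 10 bases long, begin with CC, end with GG and hold only A and T between, were searched on both strands. They were present in 1 ACTG1 window and in 1 of the SRF windows, and in 407 of all 35116 promoter windows of this length (1.16%). The windows of ACTBL2, ACTA2, TPM1, TPM2 and VCL held none, but forms of the box with a base changed were not searched. The promoters of ACTG1 and SRF are shown because they hold boxes, and that of ACTBL2 because it holds none, although ACTBL2 was lower with PAE beside ACTG1. Each is read 5′ to 3′ up to the base before the start, and capitals mark CArG boxes:
ACTG1, chr17:81512800-81513049, minus strand: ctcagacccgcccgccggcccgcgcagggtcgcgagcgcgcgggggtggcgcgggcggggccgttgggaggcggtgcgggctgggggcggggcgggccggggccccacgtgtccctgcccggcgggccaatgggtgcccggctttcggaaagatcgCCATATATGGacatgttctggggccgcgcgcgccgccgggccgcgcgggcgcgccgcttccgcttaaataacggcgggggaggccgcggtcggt
SRF, chr6:43171019-43171268, plus strand: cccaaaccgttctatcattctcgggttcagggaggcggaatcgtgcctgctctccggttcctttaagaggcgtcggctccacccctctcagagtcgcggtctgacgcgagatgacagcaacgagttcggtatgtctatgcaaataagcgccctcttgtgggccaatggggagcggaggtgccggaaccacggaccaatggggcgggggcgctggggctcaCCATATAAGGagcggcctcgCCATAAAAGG
ACTBL2, chr5:57482812-57483061, minus strand: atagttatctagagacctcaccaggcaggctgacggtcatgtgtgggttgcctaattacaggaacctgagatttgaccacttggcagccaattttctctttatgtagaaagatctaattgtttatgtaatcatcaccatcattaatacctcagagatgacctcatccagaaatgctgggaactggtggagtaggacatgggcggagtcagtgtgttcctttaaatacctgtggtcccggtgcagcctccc
The ACTG1 box, CCATATATGG, lies 94 to 85 bases before the start. The SRF window holds CCATATAAGG at 30 to 21 bases and CCATAAAAGG at 10 to 1 bases before the start. GGAATG, the core element of TEAD factors, was present on either strand in the VCL window and in 1 of the ACTA2 windows, and in 11.9% of all windows. A match is a description of these letters and does not show that a factor was bound.

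Depth ranged from 14610008 to 18263479 counts per library. The 3 untreated SKOV3 libraries stood apart from the other 9 in base composition. Across 10281 genes, which are not independent replicates, a library's deviation from the mean log2 CPM of all libraries was correlated with GC content. The Spearman coefficient was 0.761 to 0.794 in untreated SKOV3 and −0.686 to −0.459 in the others. Deviations from a shared mean balance out, so the negative values need not mean an opposite trend in those libraries, and only the contrast is described. The untreated SKOV3 libraries also had counts for 17951 to 18240 genes, against 21469 to 23194 in the other 9. Among tested genes the median log2 fold change was 0.48 for PAE in SKOV3, or 1.35 under scaling by library size only, and 0.54 between the untreated lines, or 1.22. For the 10 genes, differences from untreated SKOV3 are therefore given also after a smooth trend on GC content and length was removed from each library. Of the markers of the labelled epithelial cells, the keratin KRT8 averaged 3307, 551, 5273 and 1349 CPM (counts scaled to a common library size) in untreated SKOV3, SKOV3 with PAE, untreated SKOV3/DDP and SKOV3/DDP with PAE, and KRT19 averaged 7.65, 6.81, 1348 and 229 CPM. EPCAM and CDH1 were low in untreated SKOV3 (1.26 and 7.62 CPM) and higher in SKOV3 with PAE (6.32 and 53.7 CPM). They averaged 288 and 442 CPM in untreated SKOV3/DDP and 183 and 149 CPM in SKOV3/DDP with PAE. The summed level of the 5 epithelial markers was 4616 to 5222 CPM in untreated SKOV3 and 675 to 1343 CPM with PAE, and 10632 to 12850 CPM in untreated SKOV3/DDP and 2334 to 3342 CPM with PAE. This sum, made up mostly of KRT8 and KRT18, was thus lower with PAE in both lines, although EPCAM and CDH1 were higher with PAE in SKOV3. The GC trend was not removed from the marker values, and the part of the markers in the values of the 10 genes was not tested. Of the 3 ovarian lineage markers, PAX8 averaged 29.7, 13.2, 4.12 and 2.44 CPM in the order of groups given for KRT8. MUC16 averaged 2.08, 7.40, 0.389 and 0.445 CPM, higher with PAE in SKOV3 where PAX8 was lower, and WT1 had at most 3 counts in any library. The mitochondrial share of counts was 1.29 to 2.44% in SKOV3 libraries, 8.66 to 11.2% in untreated SKOV3/DDP and 3.93 to 8.67% in SKOV3/DDP with PAE.

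PAE in SKOV3 was compared to ask whether the genes changed in the sensitive line. The rule used no values of that line, although the list was drawn up with earlier results of all libraries known. Of the 10 genes, 8 passed an adjusted p of 0.05 in edgeR's quasi-likelihood test, against 75.3% of all 17133 genes tested (42.6% higher and 32.7% lower). ACTBL2, TPM1 and VCL rose, ACTB, ACTG1, ACTA2, TPM2 and SRF fell, and TAGLN and MYL9 did not pass. After the GC trend was removed, 7 passed, against 50.3% of the 15093 genes with a GC content, with ACTB, ACTG1, TAGLN and MYL9 higher and TPM1, TPM2 and SRF lower. TPM2 and SRF alone kept their direction and their call in all 14 alternative settings. The median log2 fold change of the 10 genes was −0.65, 0.23 under scaling by library size only and −0.21 after the trend was removed.

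With PAE in SKOV3/DDP, 8 of the 10 genes were lower and 2, ACTA2 and SRF, were higher. The 3 treated libraries did not overlap the 3 untreated ones in 9 of the 10 genes, and the same was true of 45.1% of all genes tested. The median log2 fold change of the 10 genes was −0.97, beside 0 over all genes. Together the 10 genes held 0.788 to 1.12% of the counts of untreated SKOV3/DDP libraries and 0.258 to 0.423% with PAE, while SKOV3 libraries held 0.674 to 0.946% untreated and 0.804 to 1.06% with PAE.

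**Figure D1:**
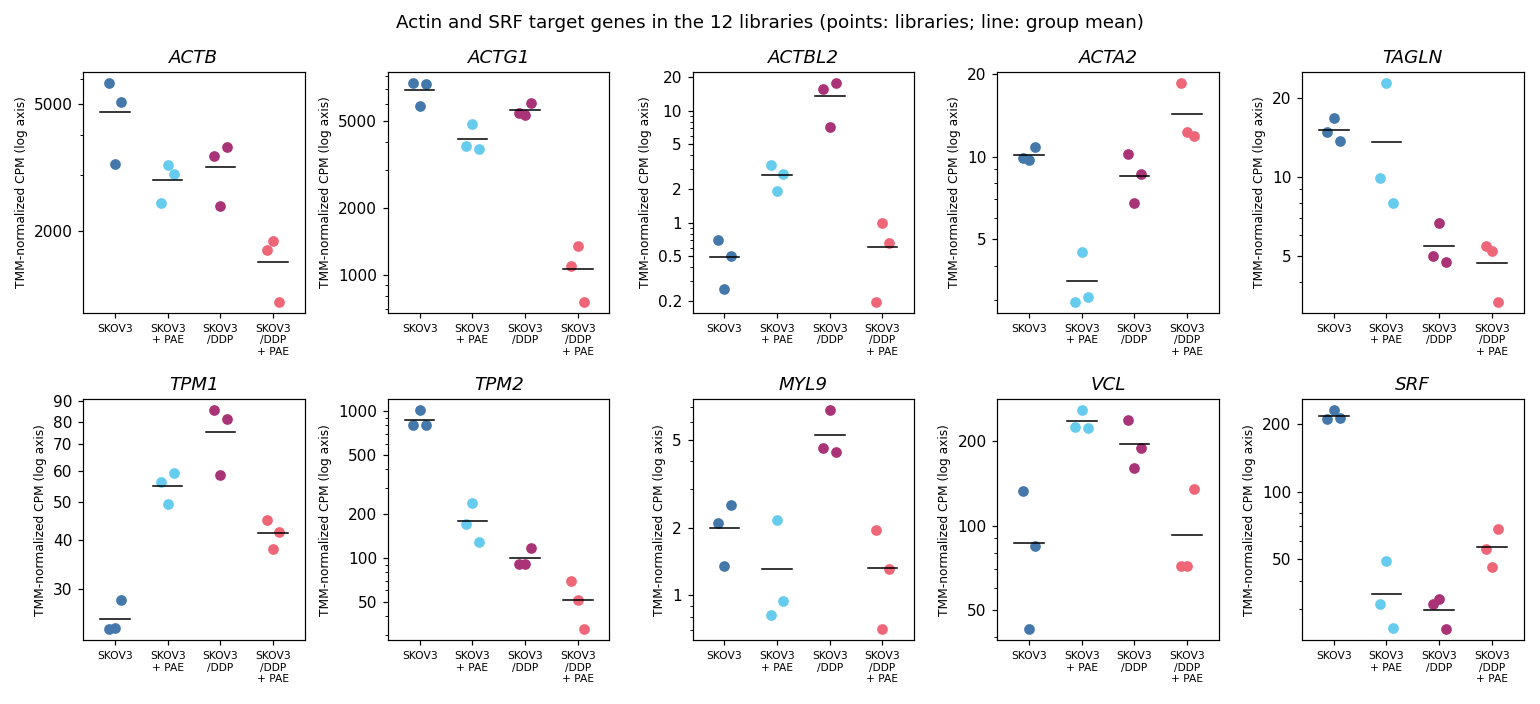
TMM-normalized CPM of the 10 genes (vertical log axes, 1 panel per gene, each with its own range) in the 4 groups, with points for libraries and a line for the mean of 3. ACTG1 lies between 749 and 1354 CPM in SKOV3/DDP with PAE and at 3743 CPM or more in the other 9 libraries, and SRF lies at 211 CPM or more only in untreated SKOV3.

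Among the cytoplasmic actins, ACTB had 5823, 3255 and 5055 TMM-normalized CPM in untreated SKOV3, 2444, 3213 and 3025 CPM in SKOV3 with PAE, 3444, 2401 and 3661 CPM in untreated SKOV3/DDP, and 1745, 1868 and 1201 CPM in SKOV3/DDP with PAE. SKOV3/DDP with PAE was below every other library, while the untreated lines overlapped. The means were 4711 ± 1318, 2894 ± 401, 3169 ± 674 and 1605 ± 355 CPM (SD, n = 3), so that the middle groups of this order, SKOV3 with PAE and untreated SKOV3/DDP, did not differ beyond their spread. In SKOV3, ACTB fell with PAE by 0.70 on the log2 scale (standard error 0.26, edgeR adjusted p = 0.0238), whereas it was higher by 0.18 under scaling by library size only and by 1.07 after removal of the GC trend. The call was lost without untreated replicate 1 (edgeR adjusted p = 0.114), untreated replicate 3 (0.0731) or PAE replicate 1 (0.0931). In SKOV3/DDP the difference with PAE was −0.98 (standard error 0.26). After PAE, ACTB was lower in SKOV3/DDP than in SKOV3 by a log2 difference of −0.85 (standard error 0.26, edgeR adjusted p = 0.0127). Between the untreated lines the difference was −0.57 (edgeR adjusted p = 0.0543), whereas it was 0.12 under scaling by library size only and 1.23 after removal of the GC trend (edgeR adjusted p = 0.000854).

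ACTG1 had 7473, 5868 and 7351 CPM in untreated SKOV3, 3854, 4850 and 3743 CPM in SKOV3 with PAE, 5453, 5317 and 6074 CPM in untreated SKOV3/DDP, and 1090, 1354 and 749 CPM in SKOV3/DDP with PAE. The 3 libraries of SKOV3/DDP with PAE lay below the lowest of the other 9, and the untreated lines overlapped. Mean levels were 6897 ± 894, 4149 ± 610, 5615 ± 403 and 1064 ± 304 CPM (SD, n = 3). In SKOV3/DDP the mean with PAE was 5.27-fold lower by the fitted log2 fold change of −2.40 (standard error 0.24), which ranged from −2.57 to −2.16 over 14 alternative settings. In SKOV3, ACTG1 fell by 0.73 on the log2 scale (standard error 0.23, edgeR adjusted p = 0.00968), but was higher by 0.15 under scaling by library size only and by 1.47 after the GC trend was removed (edgeR adjusted p = 6.46e-05). The 625 tested genes within 1 percentage point of its GC content (57.8%) had a median log2 fold change of −1.85 for PAE in SKOV3 and of −0.15 in SKOV3/DDP. Between the lines, with no test since both comparisons share libraries with the choice of this gene, the log2 differences were −0.30 untreated and −1.96 with PAE. The first was 0.39 under scaling by library size only and 1.84 after removal of the GC trend.

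ACTBL2 was a low transcript, with 8, 3 and 6 counts in untreated SKOV3, 57, 38 and 52 with PAE, 269, 114 and 290 in untreated SKOV3/DDP, and 4, 21 and 12 in SKOV3/DDP with PAE. These are 0.709, 0.255 and 0.508 CPM, 3.31, 1.93 and 2.73 CPM, 15.5, 7.19 and 17.7 CPM, and 0.196, 0.986 and 0.659 CPM in the same order. Untreated SKOV3/DDP was above every other library, and SKOV3/DDP with PAE overlapped untreated SKOV3. The fitted log2 fold change with PAE in SKOV3/DDP was −4.44 (standard error 0.54), a 21.7-fold lower level. In SKOV3 it rose by 2.42 (standard error 0.57, edgeR adjusted p = 0.00125), and the difference was −0.0077 once the GC trend was removed, its GC content of 40.2% being the lowest of the 10 genes. The 878 genes of like GC content had a median of 3.00 in that comparison and of 0.18 for PAE in SKOV3/DDP. The untested differences of SKOV3/DDP from SKOV3 were 4.76 untreated, or 2.66 after removal of the GC trend, and −2.10 with PAE. Per kilobase of gene length, mean ACTBL2 was 4.82 CPM in untreated SKOV3/DDP, beside 1749 CPM for ACTB and 2755 CPM for ACTG1.

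Since ACTB and ACTG1 encode nearly identical proteins, their counts were also set against each other within each library, where scaling cancels. Per base of gene length the ratio of ACTG1 to ACTB was 1.14, 1.60 and 1.29 in untreated SKOV3 and 1.40, 1.34 and 1.10 with PAE. These overlapped, and an exact two-sided permutation test of the mean log2 ratio gave p = 0.9 (difference −0.06). In SKOV3/DDP the ratio was 1.41, 1.97 and 1.48 untreated and 0.555, 0.645 and 0.555 with PAE, with means of 1.62 ± 0.307 and 0.585 ± 0.0518 (SD, n = 3). ACTG1 thus exceeded ACTB per base in 9 libraries and was below it in the 3 of SKOV3/DDP with PAE. Unequal change is all that such a ratio shows. Reads can be shared with near-identical copies. Of the 50-base windows of the longest transcript, 10.3% of ACTB and 3.58% of ACTG1 occurred in the transcripts of other genes, and none of ACTBL2. The 42 listed actin pseudogenes and POTE genes, of which 20 had a count, summed to 1.85 to 9.26 CPM of all counts per library, with ACTG1P25 the highest at 0.495 to 2.87 CPM.

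**Figure D2:**
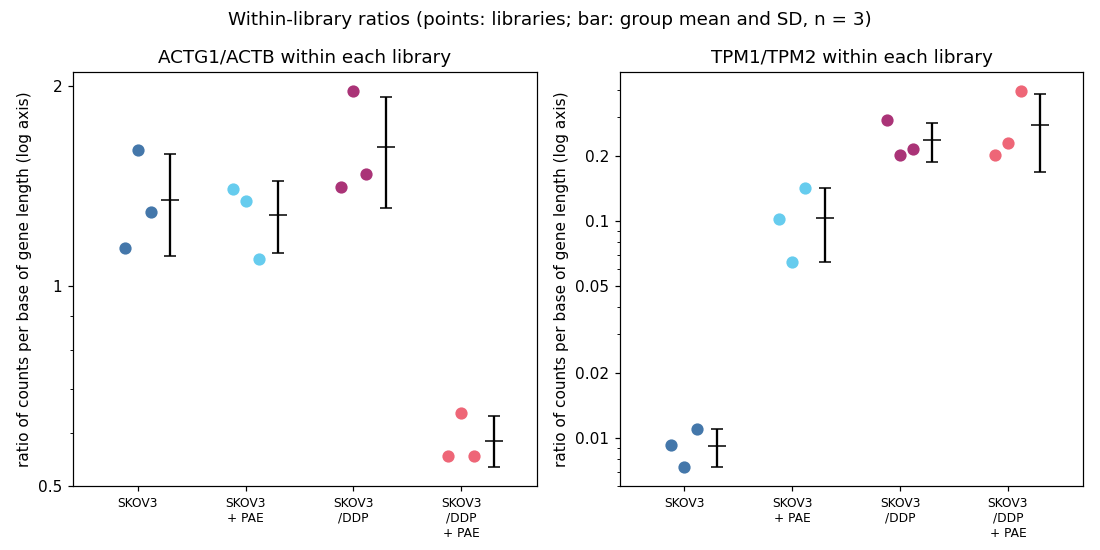
Ratio of ACTG1 to ACTB (left) and of TPM1 to TPM2 (right) in each library, as counts per base of gene length on log axes, with points for libraries and bars for the group mean and SD of 3. The ACTG1 to ACTB ratio is 1.10 or more in 9 libraries and 0.555 to 0.645 in SKOV3/DDP with PAE, and the TPM1 to TPM2 ratio is lowest in untreated SKOV3.

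ACTA2, a marker of smooth muscle and of contractile fibroblasts, had 9.92, 9.70 and 10.8 CPM in untreated SKOV3, 2.96, 4.52 and 3.10 CPM in SKOV3 with PAE, 10.2, 6.81 and 8.62 CPM in untreated SKOV3/DDP, and 18.6, 12.3 and 11.9 CPM in SKOV3/DDP with PAE. SKOV3/DDP with PAE was highest and SKOV3 with PAE lowest, without overlap, and the untreated lines overlapped. In SKOV3 it fell with PAE by 1.52 on the log2 scale (standard error 0.29, edgeR adjusted p = 0.000232). The size was −0.64 under scaling by library size only (edgeR adjusted p = 0.0723) and −0.58 after removal of the GC trend (0.0840). In SKOV3/DDP the difference with PAE was 0.74 (standard error 0.28). After PAE, ACTA2 was 4.04-fold higher in SKOV3/DDP than in SKOV3 (log2 2.01, standard error 0.29, edgeR adjusted p = 4.09e-05), and between the untreated lines the difference was −0.25 (edgeR adjusted p = 0.425), or 0.45 under scaling by library size only and 0.80 after removal of the GC trend (edgeR adjusted p = 0.0148).

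FAS, which encodes a death receptor, overlaps ACTA2 on the opposite strand and averaged 4.01, 41.5, 19.3 and 42.8 CPM in the same order of groups. The strand of counting is not known, so reads of the overlap cannot be assigned between them. Of the 5 smooth muscle markers, MYH11 had 1 count in 1 library and none in the other 11, MYOCD had at most 5 counts, and the summed level was 0.0886 to 0.340 CPM in untreated SKOV3, 2.21 to 3.09 CPM with PAE, 16.4 to 18.6 CPM in untreated SKOV3/DDP and 3.68 to 6.86 CPM with PAE. DES, the muscle intermediate filament desmin, made up most of the untreated SKOV3/DDP sum, with 15.4 CPM, and averaged 2.16 CPM with PAE. The part of these markers in the values of the 10 genes was not tested. Fibroblast markers summed to at most 17.2 CPM and endothelial markers to at most 10.6 CPM in any library. Of the leukocyte markers, PTPRC and CD3E averaged at or near 0, and CD68, which epithelial cells also express, gave nearly all of a sum of 16.7 to 104 CPM. In such bulk samples, fewer cells of a kind and less RNA per cell cannot be told apart.

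Filament proteins did not move as a block. TAGLN, which encodes transgelin, an actin-bundling protein, had 14.9, 16.8 and 13.7 CPM in untreated SKOV3, 9.92, 22.8 and 7.99 CPM in SKOV3 with PAE, 5.01, 6.68 and 4.77 CPM in untreated SKOV3/DDP, and 5.49, 5.26 and 3.35 CPM in SKOV3/DDP with PAE. Every SKOV3 library was above every SKOV3/DDP library, and treated and untreated libraries overlapped in both lines. Against SKOV3, TAGLN was lower in SKOV3/DDP by a log2 difference of −1.46 untreated (standard error 0.37, edgeR adjusted p = 0.00195) and of −1.53 with PAE (standard error 0.37, edgeR adjusted p = 0.00268). The first was −0.14 after the GC trend was removed (edgeR adjusted p = 0.719) and −0.79 under scaling by library size only (0.0594). The second was −0.94 without SKOV3 PAE replicate 2, the library at 22.8 CPM (edgeR adjusted p = 0.0217). For PAE itself the log2 fold change was −0.16 in SKOV3 (edgeR adjusted p = 0.710) and −0.22 in SKOV3/DDP. In SKOV3 it was −0.75 without PAE replicate 2 (edgeR adjusted p = 0.0447), 0.73 under scaling by library size only and 1.27 after removal of the GC trend (edgeR adjusted p = 0.00453). PCSK7, on the opposite strand across TAGLN, averaged 71.7, 17.4, 23.5 and 21.5 CPM in the 4 groups.

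TPM1 and TPM2 encode tropomyosins, coiled coils that lie along the actin filament and govern access of myosin. TPM1 had 23.7, 23.9 and 28.2 CPM in untreated SKOV3, 56.1, 49.4 and 59.2 CPM in SKOV3 with PAE, 85.5, 58.5 and 81.4 CPM in untreated SKOV3/DDP, and 45.0, 38.0 and 41.9 CPM in SKOV3/DDP with PAE. TPM2 had 797, 1013 and 798 CPM, 170, 236 and 129 CPM, 91.2, 90.7 and 117 CPM, and 69.6, 51.7 and 32.6 CPM in the same groups. Untreated SKOV3 was thus lowest for TPM1 and highest for TPM2, without overlap in either gene.

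In SKOV3 with PAE, TPM1 rose by 1.12 on the log2 scale (standard error 0.20, edgeR adjusted p = 0.000123), but was −0.65 after removal of the GC trend (edgeR adjusted p = 0.0184). TPM2 fell by 2.29 (standard error 0.29, edgeR adjusted p = 3.45e-06) and over the alternative settings ranged from −2.55 to −0.66, the latter after removal of the GC trend. With PAE in SKOV3/DDP the differences were −0.85 for TPM1 (standard error 0.20) and −0.96 for TPM2 (standard error 0.28), without overlap in either gene. Between the untreated lines TPM1 was higher in SKOV3/DDP by 1.57 (standard error 0.20, edgeR adjusted p = 3.77e-06), though −0.25 after the GC trend was removed. TPM2 was 8.71-fold lower in SKOV3/DDP without PAE (log2 −3.12, standard error 0.30, edgeR adjusted p = 1.53e-07), with a log2 difference of −3.38 to −1.45 over the alternative settings and of −1.48 after removal of the GC trend. After PAE, TPM2 was lower in SKOV3/DDP by a log2 difference of −1.80 (standard error 0.29, edgeR adjusted p = 9.08e-05), while TPM1 gave −0.40 (edgeR adjusted p = 0.102). Within libraries the ratio of TPM1 to TPM2 per base averaged 0.00918 in untreated SKOV3, 0.103 with PAE, 0.235 in untreated SKOV3/DDP and 0.276 with PAE. The log2 ratio differed by 3.44 between SKOV3 with PAE and untreated SKOV3 (exact two-sided permutation p = 0.1, the smallest that 3 against 3 allows, and 0.133 adjusted over 4 ratios). TPM1 and TPM2 differ in GC content (45.9% and 55.3%). For PAE in SKOV3, the 722 genes of like GC content to TPM1 had a median log2 fold change of 1.71. The 585 of like GC content to TPM2 had −1.57. After removal of the GC trend TPM1 and TPM2 stood close together, at −0.65 and −0.66. The ratio itself was not computed without the trend, and the part of the trend in it was not tested.

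MYL9, a regulatory light chain of myosin, was low, with 2.13, 1.36 and 2.54 CPM in untreated SKOV3, 0.813, 2.18 and 0.946 CPM in SKOV3 with PAE, 4.61, 6.81 and 4.40 CPM in untreated SKOV3/DDP, and 1.96, 0.704 and 1.32 CPM in SKOV3/DDP with PAE. Untreated SKOV3/DDP was above all other libraries, and the other 3 groups overlapped one another. Of the untreated lines, SKOV3/DDP had the higher level, by 1.39 on the log2 scale (standard error 0.47, edgeR adjusted p = 0.0138), or by 3.49 after removal of the GC trend (edgeR adjusted p = 1.17e-05). Without SKOV3 replicate 2 (edgeR adjusted p = 0.0569) or SKOV3/DDP replicate 2 (0.0507) the call was lost. The PAE difference in SKOV3/DDP was −1.99 (standard error 0.48). In SKOV3 it was −0.60 (edgeR adjusted p = 0.272), 0.27 under scaling by library size only and 1.62 after removal of the GC trend (edgeR adjusted p = 0.00844). After PAE the lines differed by 0.0076 (edgeR adjusted p = 0.990), and the sign changed in 6 of 14 alternative settings.

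VCL encodes vinculin, which ties filaments to the membrane at cell adhesions. It had 133, 42.6 and 84.3 CPM in untreated SKOV3, 224, 258 and 223 CPM in SKOV3 with PAE, 237, 160 and 189 CPM in untreated SKOV3/DDP, and 71.5, 71.8 and 135 CPM in SKOV3/DDP with PAE. Untreated SKOV3 and SKOV3/DDP with PAE overlapped as the lower groups, and the other 2 overlapped as the higher ones. In SKOV3 it rose with PAE by 1.44 (standard error 0.35, edgeR adjusted p = 0.00157), but was −0.41 after removal of the GC trend (0.170). Its difference with PAE in SKOV3/DDP was −1.08 (standard error 0.35). Between the untreated lines VCL was higher in SKOV3/DDP by 1.18 (standard error 0.35, edgeR adjusted p = 0.00574), but lower by a log2 difference of −0.72 after removal of the trend (edgeR adjusted p = 0.0165). After PAE it was lower in SKOV3/DDP by a log2 difference of −1.35 (standard error 0.35, edgeR adjusted p = 0.00426), which ranged from −1.71 to −1.19 over the alternative settings. AP3M1, which overlaps VCL on the opposite strand, averaged 10.01, 88.9, 61.5 and 81.5 CPM in the 4 groups.

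SRF itself had 211, 231 and 212 CPM in untreated SKOV3, 31.6, 48.8 and 24.6 CPM in SKOV3 with PAE, 31.5, 33.2 and 24.3 CPM in untreated SKOV3/DDP, and 55.6, 46.2 and 68.1 CPM in SKOV3/DDP with PAE. Untreated SKOV3 was far above the other 9 libraries, and SKOV3 with PAE overlapped both groups of SKOV3/DDP. In SKOV3 with PAE, SRF fell 6.23-fold (log2 −2.64, standard error 0.26, edgeR adjusted p = 2.70e-07). Of the 10 genes it has the highest GC content (60.9%), and the 585 genes of like GC content had a median of −2.35 in the same comparison. After the trend was removed the log2 fold change was −0.65 (edgeR adjusted p = 0.0108). Between the untreated lines SRF was lower in SKOV3/DDP by a log2 difference of −2.88 (standard error 0.27, edgeR adjusted p = 9.88e-08), or of −1.14 after removal of the trend. Its level with PAE in SKOV3/DDP was higher by 0.93 (standard error 0.25), opposite to ACTG1 and ACTBL2 in the same libraries. After PAE, SRF was higher in SKOV3/DDP than in SKOV3 by 0.69 (standard error 0.25, edgeR adjusted p = 0.0282), although the groups overlapped. That call was lost without SKOV3 PAE replicate 1 (edgeR adjusted p = 0.0897) or 3 (0.129), and without SKOV3/DDP PAE replicate 1 (0.0565) or 3 (0.106).

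**Figure D3:**
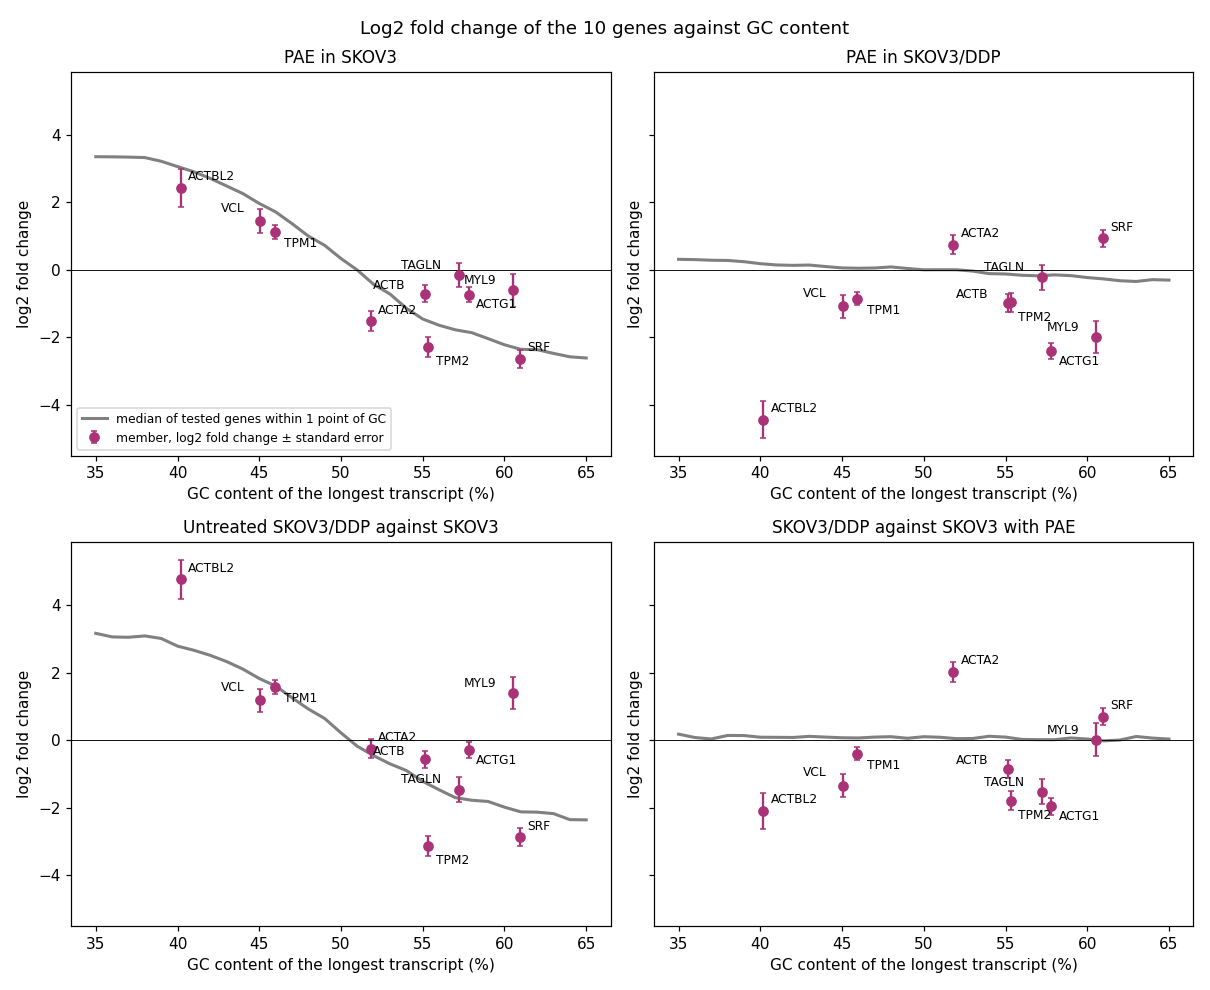
Log2 fold change of the 10 genes with its standard error (vertical axes) against the GC content of the longest transcript in percent (horizontal axes), in 4 comparisons, with a grey line for the median of tested genes within 1 percentage point of GC. The grey line is steep in both comparisons with untreated SKOV3 and nearly flat in the other 2, where ACTG1 stands at −2.40 and −1.96 and ACTBL2 at −4.44 and −2.10.

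Counted over the lines, the 8 genes that could be tested gave 6 calls between the untreated lines, against 81.8% of all genes (45.8% higher and 36% lower). TPM1, MYL9 and VCL were higher in SKOV3/DDP and TAGLN, TPM2 and SRF were lower. Of these, TPM1 and VCL had the opposite sign after the GC trend was removed, TAGLN no longer passed, and MYL9, TPM2 and SRF kept both sign and call. Between the lines after PAE there were again 6 calls, against 54.5% of all genes (27.5% higher and 27.1% lower), with ACTA2 and SRF higher and ACTB, TAGLN, TPM2 and VCL lower in SKOV3/DDP. Neither of these groups carries the untreated SKOV3 libraries. All 6 kept their direction in each of 14 alternative settings, and all but SRF kept their call. Both comparisons between the lines share SKOV3/DDP libraries with the choice of ACTG1 and ACTBL2, so the calls of the other 8 genes are not independent of it.

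**Figure D4:**
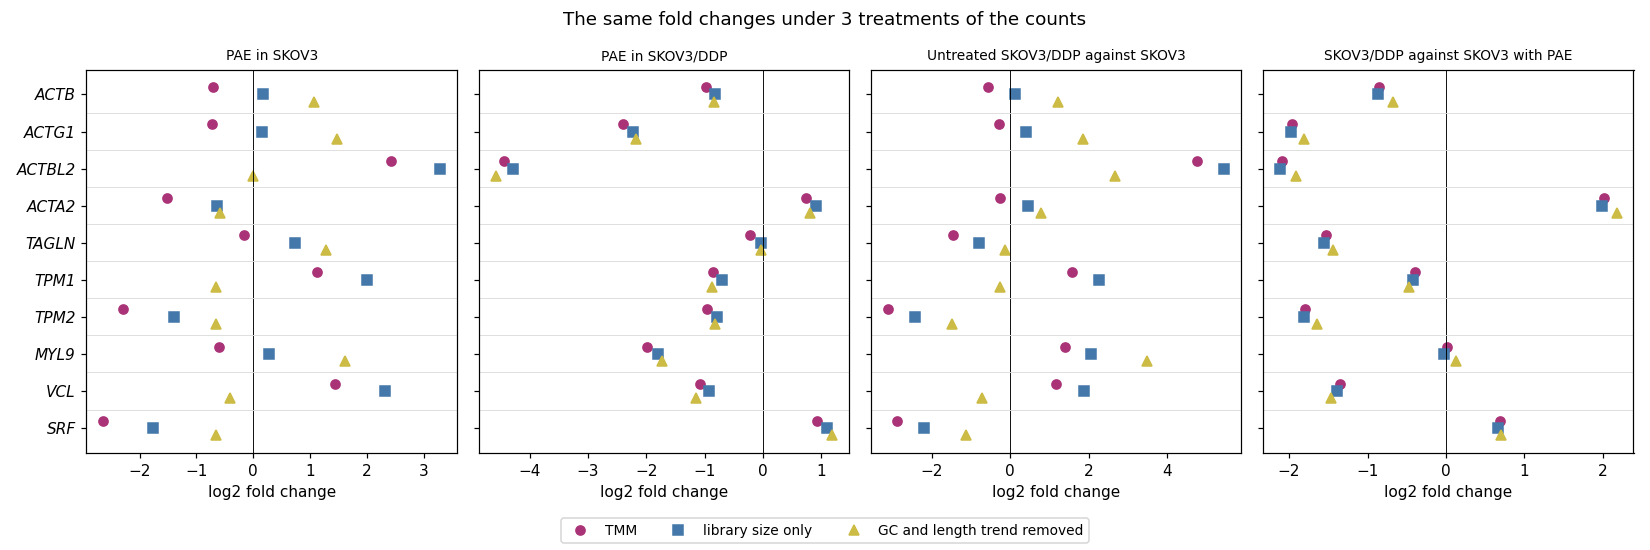
Log2 fold change (horizontal axes, with ranges that differ between panels) of the 10 genes in 4 comparisons, after TMM scaling (circles), scaling by library size only (squares) and removal of a GC and length trend (triangles). In both comparisons with untreated SKOV3 the symbols of 1 gene spread across 0 in many cases, as for ACTG1 with PAE in SKOV3 (−0.73, 0.15 and 1.47), and in the other 2 comparisons they nearly coincide.

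Other genes of actin dynamics and SRF signalling were listed by role, 68 in all, of which 65 were tested. With PAE in SKOV3, 36 rose and 23 fell (42.6% and 32.7% of all genes), with a median log2 fold change of 1.17 beside 0.48 over all genes. The counts were 39 and 18 under scaling by library size only (52.9% and 22.4% of all genes). They were 28 and 13 after removal of the GC trend (28.4% and 21.9% of all genes in that fit). Of the 9 immediate early SRF targets, FOS, FOSB, EGR1, EGR2, EGR3, CCN1 and CCN2 rose, JUNB fell and IER2 did not pass. The treated libraries differed widely among themselves in these genes, of which 3 chosen after their values were seen are given. FOS, an AP-1 subunit, had 382, 343 and 25.2 CPM with PAE and 20.8 to 27.6 CPM untreated, and FOSB had 312, 110 and 3.57 CPM with PAE and 11.4 to 14.9 CPM untreated. EGR3, a zinc finger factor, had 33.0, 17.8 and 0.473 CPM with PAE and 1.51 to 2.79 CPM untreated. PAE replicate 3 was thus within or below the untreated range in these genes, while the other 2 were far above it. Without PAE replicate 1, 4 of the 9 targets rose (39.6% of all genes), and without replicate 3, 7 rose (40.4% of all genes). JUNB, a further AP-1 subunit, fell by 2.35 on the log2 scale (edgeR adjusted p = 0.000349). PFN1, the monomer-binding profilin, fell by 2.53 (edgeR adjusted p = 6.35e-08), FLNA, the crosslinker filamin A, fell by 2.11 (edgeR adjusted p = 1.19e-05), and TPM4, a further tropomyosin, rose by 2.31 (edgeR adjusted p = 5.67e-07). After removal of the GC trend the log2 fold changes were 0.11 for PFN1 (edgeR adjusted p = 0.579), −0.28 for FLNA (0.332), 0.53 for JUNB (0.265) and 1.38 for TPM4 (3.26e-05), so that TPM4 alone of these 4 kept its call. IER2 turned from −0.88 to 1.76 (edgeR adjusted p = 0.00253), but was −1.14 in DESeq2 (adjusted p = 0.0124). Of the 9 immediate early targets, 6 were higher and 0 lower after that removal (28.4% and 21.9% of all genes in that fit).

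With PAE in SKOV3/DDP, 15 of the 65 genes had a positive log2 fold change and 50 a negative one. The treated libraries were all above the untreated ones in 4 genes and all below them in 28 (21.4% and 23.7% of all genes), with a median log2 fold change of −0.49 beside 0 over all genes. These lists share a pathway with the genes that chose the comparison, so the counts are not independent of that choice. In 5 of the lists by role, the genes lower without overlap were 5 of 14 for monomer binding and filament turnover, 5 of 7 for tropomyosins, calponins and caldesmon, 5 of 6 for myosin, 8 of 15 for focal adhesion and crosslinkers, and 1 of 9 for immediate early SRF targets. TPM4 averaged 1358 CPM untreated and 580 CPM with PAE (log2 −1.23). MYL6, an essential myosin light chain, averaged 273 and 101 CPM (log2 −1.44), and ACTN1, the crosslinker alpha-actinin 1, averaged 416 and 196 CPM (log2 −1.08). RHOA, the GTPase upstream of filament assembly, had a log2 fold change of −0.68. PFN1, TMSB10, MYH9, FLNA, TPM3, DIAPH1, JUNB and IER2 had log2 fold changes from −0.72 for FLNA to 0.79 for JUNB.

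Between the lines after PAE, 3 of the 65 genes were higher and 30 lower in SKOV3/DDP (27.5% and 27.1% of all genes), with a median of −0.59 beside 0.06 over all genes. Between the untreated lines 31 were higher and 24 lower (45.8% and 36% of all genes), with a median of 0.51 beside 0.54. The untreated split was 33 to 17 under scaling by library size only (52.7% and 28.9% of all genes) and 23 to 24 after removal of the GC trend (36.4% and 33.2% of all genes in that fit). Both comparisons between the lines share SKOV3/DDP libraries with the choice of ACTG1 and ACTBL2, so these counts are not independent of that choice. Of the muscle actins, ACTC1 of heart had 17, 11 and 10 counts in untreated SKOV3, 42, 50 and 24 with PAE, 0, 1 and 0 in untreated SKOV3/DDP and none in the 3 libraries of SKOV3/DDP with PAE. ACTA1 of skeletal muscle had no count in untreated SKOV3, 37, 6 and 4 with PAE, 0, 10 and 1 in untreated SKOV3/DDP, and 15, 11 and 1 with PAE. Both were thus near the limit of detection, and ACTC1 was found almost only in the sensitive line.

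**Figure D5:**
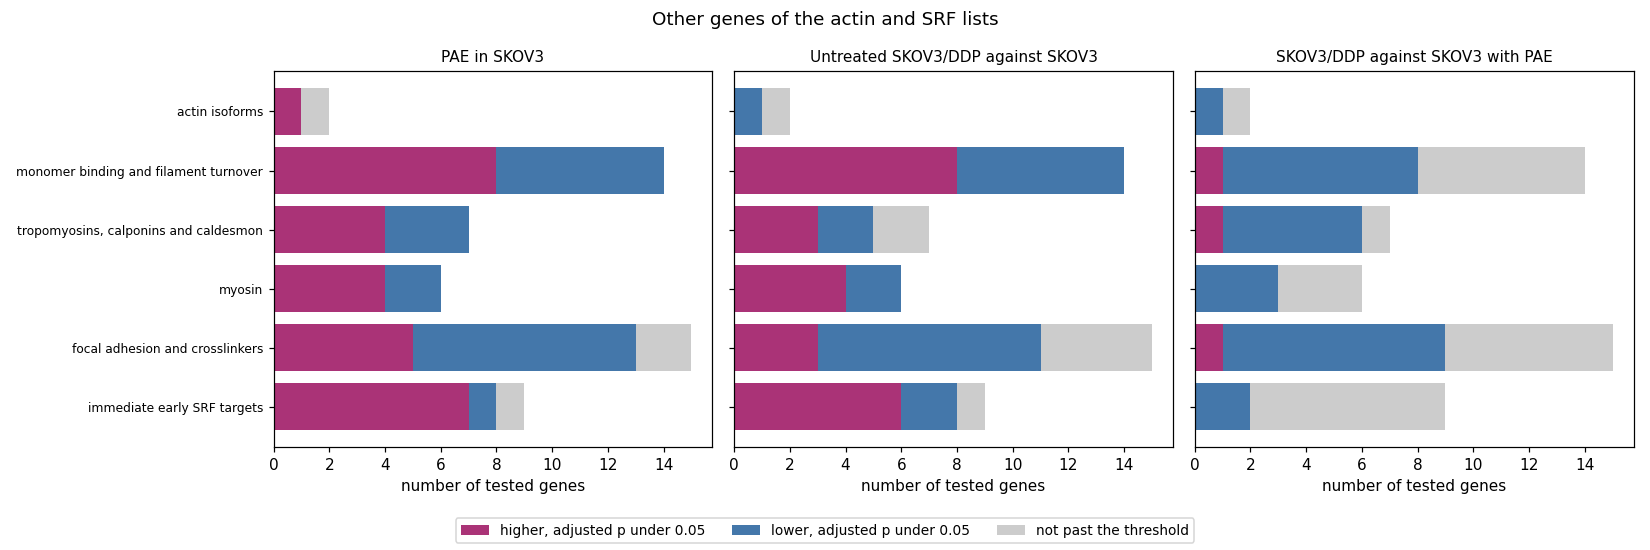
Number of tested genes (horizontal axes) in 6 lists of actin dynamics and SRF targets, apart from the 10 genes, that were higher (purple), lower (blue) or not past an adjusted p of 0.05 (grey) in 3 comparisons. The comparison that chose the 10 genes is not shown, but both comparisons between the lines share SKOV3/DDP libraries with it. With PAE in SKOV3 the immediate early targets have 7 higher genes and 1 lower (42.6% and 32.7% of all genes). Between the lines after PAE the focal adhesion genes and crosslinkers have 1 higher and 8 lower of 15 (27.5% and 27.1% of all genes).

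The genes most like ACTG1, by Pearson's correlation of log2 CPM over the 12 libraries among 13777 protein-coding genes, were SERPINB6 (0.977), ME3 (0.974), UCP2 (0.967), LARGE2 (0.959) and OAS1 (0.958). SERPINB6 averaged 172, 127, 134 and 58.9 CPM in untreated SKOV3, SKOV3 with PAE, untreated SKOV3/DDP and SKOV3/DDP with PAE. UCP2 averaged 62.6, 25.5, 28.2 and 4.78 CPM. For TAGLN they were SAA1, ZC3H12A, COX6B2, CLCF1 and SPOCD1, at 0.944 to 0.951. Among the 10 genes, ACTG1 correlated with ACTB at 0.911 and with SRF at 0.207, and TPM1 with SRF at −0.929. The points share 4 groups and the GC trend of 3 libraries, so these values describe the pattern only.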

How the data were processed

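RNA of 12 libraries was selected with poly-T beads and sequenced. The deposited files hold raw counts of each gene as whole numbers, 1 file per library, with GRCh38 coordinates. The submitters' processing notes name HISAT2 2.0.5, StringTie 1.3.3b, DESeq2 and edgeR without roles; the annotation release and strand of counting are not given in the sources used here. Of 47219 loci, 869 without a gene name (0.126 to 0.678% of counts) were left out. Counts were filtered with filterByExpr, scaled by TMM and compared in 1 fit of 4 groups by the quasi-likelihood test of edgeR 4.0.16 in R 4.3.3, with Benjamini-Hochberg adjustment over 17133 genes at 0.05. Standard errors were derived from the F statistic. GC content came from the longest GENCODE 29 transcript (88.1% of tested genes), and its trend and that of length were removed as natural splines with 5 degrees of freedom. Alternatives were DESeq2 1.42.0, scaling by library size only, the replicate block, no filter, a minimum of 10 counts per library, 6 libraries alone, and each library left out. In simulated data 200 genes were changed per comparison, a far smaller share than passed in these libraries. There the fit recovered 11.9 to 21.1% of genes with a log2 change of 1 in size, and 67.8 to 78.0% of those with 2. Since the share of changed genes affects the adjustment, these rates do not carry over to the comparisons here. A gene that did not pass may still have changed. The 10 genes and all lists were chosen with earlier results of these data known. Named beside them are the 2 most abundant genes of each list and the 5 genes most like ACTG1 and TAGLN.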

Additional observations from a re-analysis of the deposited data

Results flagged for a closer look

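Of the 10 genes, 5 moved in opposite directions with PAE in the 2 lines, with no overlap between treated and untreated libraries in either line. The difference between the lines was not tested, since it includes the comparison that chose the genes. ACTBL2 had a log2 fold change of 2.42 in SKOV3 and of −4.44 in SKOV3/DDP. TPM1 had 1.12 and −0.85, and VCL had 1.44 and −1.08. ACTA2 had −1.52 in SKOV3 and 0.74 in SKOV3/DDP, and SRF had −2.64 and 0.93. Among all 17133 genes tested, 2224 (13%) moved in this way. After removal of the GC trend, the SKOV3 values were −0.0077 for ACTBL2, −0.65 for TPM1 and −0.41 for VCL, which are no longer opposite to those in SKOV3/DDP, while ACTA2 (−0.58) and SRF (−0.65) kept the opposite sign. By sign alone, ACTB, ACTG1, TAGLN and MYL9 became opposite after that removal, being higher with PAE in SKOV3 and lower in SKOV3/DDP.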

How the results depend on the processing

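PAE values in SKOV3/DDP kept their sign in every setting run except TAGLN, which was 0.011 without SKOV3/DDP PAE replicate 3, and the median of the 10 genes was −1.09 to −0.79 with 1 library left out. Under scaling by library size only, 5 of the 10 genes passed for PAE in SKOV3, against 75.2% of all genes. Signs turned there for ACTB (0.18), ACTG1 (0.15), TAGLN (0.73) and MYL9 (0.27), between the untreated lines for ACTB (0.12), ACTA2 (0.45) and the untested ACTG1 (0.39), and after PAE for MYL9 (−0.026). The higher and lower calls over all genes were 7292 and 5603 for PAE in SKOV3 (9055 and 3835 by library size only), and 7848 and 6162 between the untreated lines (9037 and 4948).

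With the GC trend removed, 7592 genes passed for PAE in SKOV3 (12895 with TMM alone). Signs turned there for ACTB (1.07), ACTG1 (1.47), ACTBL2 (−0.0077), TAGLN (1.27), TPM1 (−0.65), MYL9 (1.62) and VCL (−0.41), and between the untreated lines for ACTB (1.23), ACTA2 (0.80), TPM1 (−0.25), VCL (−0.72) and the untested ACTG1 (1.84, also with the block). With the replicate block in addition the values were 1.11, 1.47, 1.20, −0.66, 1.62 and −0.37 for ACTB, ACTG1, TAGLN, TPM1, MYL9 and VCL, and 1.24, 0.78, −0.26 and −0.71 for ACTB, ACTA2, TPM1 and VCL between the untreated lines. In that fit 38 of the 65 listed pathway genes passed for PAE in SKOV3, against 47.0% of all genes. The replicate block alone changed no call of the 10 genes. Libraries with the same number correlated at −0.151 to 0.111 in their deviations from group means, so they share only a number.

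The study's criteria were a log2 fold change over 2 in size and an unadjusted p of 0.05. By these, 3 of the 10 genes and 41 pathway genes passed for PAE in SKOV3 (50.2% of all genes). Between the lines only 8 of the 10 genes were counted, without ACTG1 and ACTBL2. Of these 8 and of the pathway genes, 2 and 36 passed between the untreated lines (57.3%), and 1 and 10 after PAE (24.6%). With 1 library left out, 7 to 9 of the 10 genes passed for PAE in SKOV3. Of the same 8 genes, 5 to 7 passed between the untreated lines and 5 to 6 after PAE. For pathway genes the counts were 54 to 59, 52 to 55 and 27 to 30 in the same order. The shares of all genes in those fits were 69.2 to 71.8%, 76.8 to 78.4% and 47.4 to 50.4%. ACTB between the untreated lines passed in DESeq2 (−0.81, adjusted p = 0.00364), with the 6 libraries alone (edgeR adjusted p = 0.0385), and without SKOV3 replicate 2 (0.0151) or SKOV3/DDP replicate 3 (0.0431). TAGLN for PAE in SKOV3 was −0.75 to 0.12 with 1 library left out (0.03 and 0.12 without PAE replicates 1 and 3). MYL9 after PAE was −0.012 without a filter, −0.062 with 6 libraries, and −0.39 to 0.57 with 1 library left out (−0.25, −0.19 and −0.39 without SKOV3 PAE replicates 1 and 3 or SKOV3/DDP PAE replicate 1). ACTBL2 had under 10 counts in 3 untreated SKOV3 libraries and has no value under that filter. The causes were not tested. Depth limits ACTBL2 and MYL9, whose lowest libraries held 3 and 14 counts.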
